A study of Sus scrofa with 9 samples.

Results

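Genes of DNA replication and DNA repair were examined in porcine hatched blastocysts (HB) made by chromatin transfer (CT HB), by parthenogenetic activation (PA HB) or in vivo (IVV HB). They were chosen by gene symbol alone, from the symbol prefixes of the replicative helicase, polymerases, primase, clamp loader, single-strand binding protein, mismatch repair, excision repair, recombination, end joining and Fanconi anaemia families, with a few single genes such as *LIG1* and *RRM1*. Of 7497 genes with a named probe, 53 had such a symbol, and they were measured by 85 probes. By role they comprised 6 helicase genes, 9 of the polymerases and primase, 4 of the clamp loader, 2 of the single-strand binding protein, the DNA ligase gene *LIG1* and the ribonucleotide reductase gene *RRM1*. The 6 helicase genes are the MCM and GINS genes, and they include *MCM8*, a helicase of recombination, and *MCM9*. The others were *MSH3* of mismatch repair, 5 genes of homologous recombination, 7 of the Fanconi anaemia pathway, 4 of end joining and break repair, 6 of nucleotide excision repair, 3 of the checkpoint clamp and the cohesin gene *RAD21*. A further 3 genes were matched by prefix only and placed in none of these roles (*POLDIP3*, *PRIMA1* and *RAD54L2*). *ORC* genes, *MLH* genes, *PCNA*, *FEN1* and *RRM2* were not analysed here.

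In S phase the MCM helicase, joined by the GINS complex, unwinds DNA, primase and polymerase alpha lay down primers, and polymerases delta and epsilon extend them on a sliding clamp that the RFC complex loads. The same clamp, the single-strand binding protein RPA and several polymerases also serve repair, in which separate pathways handle mismatches, bulky lesions, crosslinks and broken ends. The first cleavage divisions run on proteins and transcripts stored in the oocyte, before the embryo's own genome takes over. Roles given below are those of the human or yeast proteins.

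Each group had 3 arrays, and each array compared 1 pool of 5 embryos, labelled with Cy5, with a common reference of amplified RNA from 10 stages between the oocyte and the day 11 blastocyst, labelled with Cy3. CT HB were reconstructed by transfer of remodelled somatic chromatin into enucleated oocytes, and PA HB came from oocytes activated without sperm. Both were activated with ionomycin and 6-DMAP and cultured in mNCSU-23 medium, and the study's methods give only an upper limit for the days in culture. Both carry a collection time of 7 hpf in their labels, a time at which no blastocyst exists, so their exact age is not settled here. According to the study, both kinds were produced by a company, from oocytes matured in vitro. IVV HB were flushed from inseminated gilts at 5.5 days post insemination. Embryo origin, oocyte maturation, producer, culture and age thus changed together and cannot be told apart. According to the study's methods, pools of a group are biological replicates, with no word on whether they were collected or activated separately, and the spread behind each p-value is that between these pools.

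Array signals spread more widely in PA HB, with an interquartile range of 0.85 to 1.03 on the log2 scale, than in CT HB (0.58 to 0.66) and IVV HB (0.55 to 0.67). The 10 measured trophectoderm genes had array medians of 0.09 to 0.60, and 18 oocyte and maternal genes had medians from -2.76 to -2.44 in CT HB, -2.26 to -1.71 in PA HB and -2.87 to -2.16 in IVV HB, as a log2 ratio of embryo over reference. The 4 measured leukocyte genes had array medians of 1.02 to 1.73 in CT HB, 2.15 to 2.89 in PA HB and 0.11 to 0.36 in IVV HB. Of these, *AIF1* and *INPP5D* were higher by log2 differences of 4.98 and 2.41 in CT HB and 4.39 and 2.13 in PA HB relative to IVV HB, *CXCR4* by 1.98 in PA HB on a probe of the common profile described next, and the pan-leukocyte gene *PTPRC* differed by -0.04 in CT HB and 0.19 in PA HB. A single profile over the 9 arrays was shared by 580 probes (2.42%), of which 238 carry a name, for 229 genes. These include the oocyte genes *ZP2*, *ZP3*, *GDF9* and *KPNA7* beside genes of other lists, and how the genes relate to each other was not tested. The 580 probes had medians of 0.43, 1.18 and 0.07 in CT HB, 2.32, 3.48 and 3.55 in PA HB, and 0.41, 2.27 and 1.10 in IVV HB. This profile is called the common profile here, and the array IVV HB 2 stood nearest to PA HB in it. Each pool is whole embryos, in which fewer cells of a type and less RNA per cell cannot be told apart.

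Relative to the reference, replication and repair transcripts were mostly low at the hatched stage in all 3 groups. A log2 ratio below 0 on every one of the 9 arrays was found for 23 of the 53 genes (43.4%), against 21.6% of all genes, and one above 0 on every array for 5 (9.43%, against 9.22%). The median ratio of the 53 genes over all arrays was -0.37, against -0.05 for all genes. The ratio says how a gene stands against the reference RNA, and not how many transcripts one gene has against another. The 53 genes varied within groups about as other genes did, with a median SD of 0.27 against 0.25.

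A group of 5 genes lay below -1 on all 9 arrays (9.43%, against 3.79% of all genes), and they belong to different machines. *POLD3*, an accessory subunit of polymerase delta, read -2.72, -2.39 and -2.08 in CT HB, -2.32, -1.999 and -1.67 in PA HB, and -2.67, -2.31 and -2.35 in IVV HB. *RFC4*, a clamp loader subunit, read -2.20, -2.30 and -2.35 in CT HB, -2.11, -1.63 and -1.999 in PA HB, and -1.83, -1.84 and -1.99 in IVV HB. The groups overlapped for *POLD3*, and CT HB lay lowest for *RFC4*, below both other groups on every array. *RFC3* of the same complex averaged -2.08 ± 0.13 in CT HB, -1.67 ± 0.42 in PA HB and -1.80 ± 0.16 in IVV HB (SD, n = 3 each). *RAD50*, of the complex that senses broken ends, averaged -1.89 ± 0.05 in CT HB, -1.73 ± 0.21 in PA HB and -1.60 ± 0.36 in IVV HB. *RAD51AP1*, a gene of homologous recombination, had the lowest mean ratio of the 53 genes, with -2.61 ± 0.11 in CT HB, -2.75 ± 0.59 in PA HB and -1.998 ± 0.30 in IVV HB. These 5 genes were singled out after their values were seen.

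**Figure D1:**
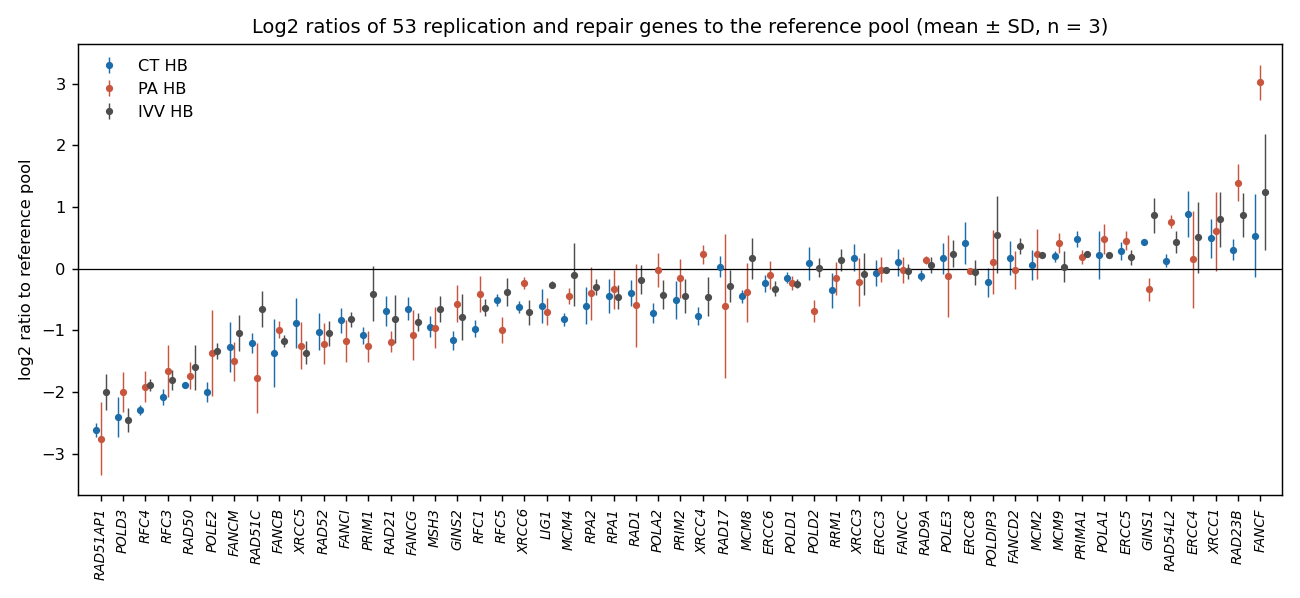
Mean log2 ratio to the reference pool of each of the 53 genes (points, with SD bars, n = 3 arrays) in CT HB, PA HB and IVV HB, ordered by the mean over all 9 arrays. Most genes lie below 0, *RAD51AP1* is at the low end with a mean of -2.46, and *FANCF* at the high end with 1.60, where PA HB stands far above the other groups.

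PA HB were compared with IVV HB to ask how embryos with maternal genomes only, grown in culture, depart from embryos grown in vivo. In this comparison *GINS1* and *RAD51C* fell and *FANCF* rose, and the other 50 genes did not pass both thresholds. A gene was counted as changed at a limma p of at most 0.05 after Benjamini-Hochberg adjustment over all 7497 genes and a change of at least 2-fold, which 3 of the 53 genes met (5.66%), against 7.71% of all genes. The gene that rose stands against 4.34% of all genes that rose, and the 2 that fell (3.77%) against 3.37%. Arrays of PA HB and IVV HB did not overlap for 11 of the 53 genes (20.8%), against 30.8% of all genes. The median difference of the 53 genes was -0.05 on the log2 scale, against 0.01 for all genes, and 29 lay below 0 (54.7%, against 49.3%). The sign of that median is not settled, since it was 0.07 after scale normalization, where 19 genes lay below 0, and ran from -0.08 to -0.01 with any 1 array left out. Over the same comparison all 18 oocyte and maternal genes had differences above 0, 8 of them past both thresholds (44.4%, against 4.34% of all genes that rose), and the part of this in the values of replication genes was not tested. Those 8 became 2 without IVV HB 1 or PA HB 3, 3 without PA HB 2, 2 after quantile normalization and 13 after scale normalization. Among the 8, *ZP3* and *GDF9* were measured only by probes of the common profile.

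*GINS1* encodes a subunit of the GINS complex, which joins the MCM ring to form the active helicase. It was measured by 1 probe, so agreement between probes could not be examined. Its log2 ratio was 0.41, 0.48 and 0.43 in CT HB, -0.53, -0.31 and -0.16 in PA HB, and 0.85, 0.59 and 1.16 in IVV HB. PA HB lay below 0 and both other groups above it, with no overlap between any of the 3 groups. *GINS1* was 2.30-fold lower in PA HB than in IVV HB (log2 difference -1.20, SE 0.18, limma adjusted p = 0.003), and the difference lay between -1.34 and -1.06 with any 1 array left out, passing both thresholds each time. Between CT HB and PA HB it was 0.77 (SE 0.18, limma adjusted p = 0.018), under 2-fold, and between CT HB and IVV HB -0.43 (SE 0.18, limma adjusted p = 0.4). The other helicase genes had differences of -0.55 (*MCM8*) to 0.38 (*MCM9*) between PA HB and IVV HB. Among them *MCM2* and *MCM4*, of the MCM ring, differed by 0.01 and -0.34.

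*RAD51C* encodes a protein of homologous recombination, the repair of broken DNA from an intact copy. Its log2 ratio was -1.24, -1.02 and -1.33 in CT HB, -2.35, -1.75 and -1.22 in PA HB, and -0.46, -0.99 and -0.51 in IVV HB. Every PA HB array lay below every IVV HB array, and the CT HB arrays lay around PA HB 3 and below IVV HB. *RAD51C* was 2.17-fold lower in PA HB than in IVV HB (log2 difference -1.12, SE 0.26, limma adjusted p = 0.019). The call was lost without PA HB 1 (-0.84, under 2-fold), and with PA HB 2, IVV HB 1 or IVV HB 3 left out adjusted p was 0.058 to 0.082. It was lost as well after quantile (-0.96) and scale normalization (-0.60). Its probes differed by -1.52 (limma adjusted p = 0.018) and -0.73 (limma adjusted p = 0.077). The other 4 recombination genes had differences of -0.76 to -0.13, all below 0 and none past the thresholds.

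*FANCF* encodes a subunit of the Fanconi anaemia core complex, which marks crosslinked DNA for repair. Its log2 ratio was 0.10, 1.31 and 0.20 in CT HB, 2.70, 3.12 and 3.25 in PA HB, and 0.39, 2.25 and 1.09 in IVV HB. The PA HB arrays lay together above all others, whereas CT HB 2 and IVV HB 2 stood well above the other arrays of their groups. *FANCF* was 3.44-fold up in PA HB relative to IVV HB (log2 difference 1.78, SE 0.43, limma adjusted p = 0.02) and 5.61-fold down in CT HB relative to PA HB (log2 difference -2.49, SE 0.43, limma adjusted p = 0.006). Its only probe followed the common profile with a correlation of 0.98 over the 9 arrays, and what part of the difference belongs to the gene itself was not tested. Against IVV HB the call was lost with PA HB 2, PA HB 3, IVV HB 1 or IVV HB 3 left out, with adjusted p of 0.062 to 0.087, and after quantile (0.72) and scale normalization (0.91). Against CT HB it was lost after quantile normalization only, at -1.29 (limma adjusted p = 0.1), among the settings run. The other 6 Fanconi anaemia genes, among them the paired *FANCD2* and *FANCI*, had differences of -0.46 to 0.19 between PA HB and IVV HB.

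Another 4 genes had an adjusted p of at most 0.05 in PA HB against IVV HB with a change under 2-fold, which makes 7 of 53 by that measure alone (13.2%), against 13.9% of all genes. *POLD2*, an accessory subunit of polymerase delta, had log2 ratios of -0.13, 0.39 and -0.01 in CT HB, -0.47, -0.79 and -0.78 in PA HB, and 0.09, 0.11 and -0.16 in IVV HB. The PA HB arrays lay apart below both other groups, with a difference of -0.70 (SE 0.19, limma adjusted p = 0.032) to IVV HB, and CT HB exceeded PA HB by 0.77 (SE 0.19, limma adjusted p = 0.02). *RFC5*, a small subunit of the clamp loader, read -0.59, -0.51 and -0.40 in CT HB, -1.08, -1.16 and -0.75 in PA HB, and -0.12, -0.56 and -0.46 in IVV HB. It too was lowest in PA HB with no overlap, and its difference to IVV HB was -0.61 (SE 0.18, limma adjusted p = 0.045). *PRIM1*, the catalytic subunit of primase, read -0.93, -1.18 and -1.13 in CT HB, -1.46, -0.98 and -1.34 in PA HB, and 0.08, -0.80 and -0.50 in IVV HB. Here CT HB and PA HB overlapped, and both lay below all IVV HB arrays, with differences to IVV HB of -0.67 (SE 0.23, limma adjusted p = 0.26) for CT HB and -0.85 (SE 0.23, limma adjusted p = 0.032) for PA HB. *PRIM1* was named after its values were seen.

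*XRCC4*, the partner of DNA ligase IV in end joining, went the other way. Its log2 ratio was -0.68, -0.93 and -0.69 in CT HB, 0.13, 0.40 and 0.16 in PA HB, and -0.64, -0.64 and -0.09 in IVV HB. PA HB lay above 0 and both other groups below it, with CT HB lowest and no overlap between any pair of groups. The difference was 0.69 (SE 0.19, limma adjusted p = 0.036) between PA HB and IVV HB and -0.999 (SE 0.19, limma adjusted p = 0.0073) between CT HB and PA HB, where the fold change of 1.999 missed the 2-fold minimum by the last digit. *POLD2*, *PRIM1* and *XRCC4* were measured by 1 probe each, and *RFC5* by 3. Against IVV HB the adjusted p of these 4 genes depended on single arrays, and stayed at or under the threshold in 4 of 9 fits without 1 array for *POLD2*, 5 for *PRIM1*, 3 for *XRCC4* and 2 for *RFC5*. After quantile and after scale normalization it exceeded the threshold for *POLD2* (log2 differences of -0.55 and -0.53), *PRIM1* (-0.67 and -0.52) and *RFC5* (-0.40 and -0.32), and not for *XRCC4*. For *XRCC4* in CT HB against PA HB it held in 9 of 9 such fits, with differences of -1.05 to -0.91. The Ku genes *XRCC5* and *XRCC6*, which bind broken ends before XRCC4 acts, had differences of 0.11 and 0.47 between PA HB and IVV HB.

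**Figure D2:**
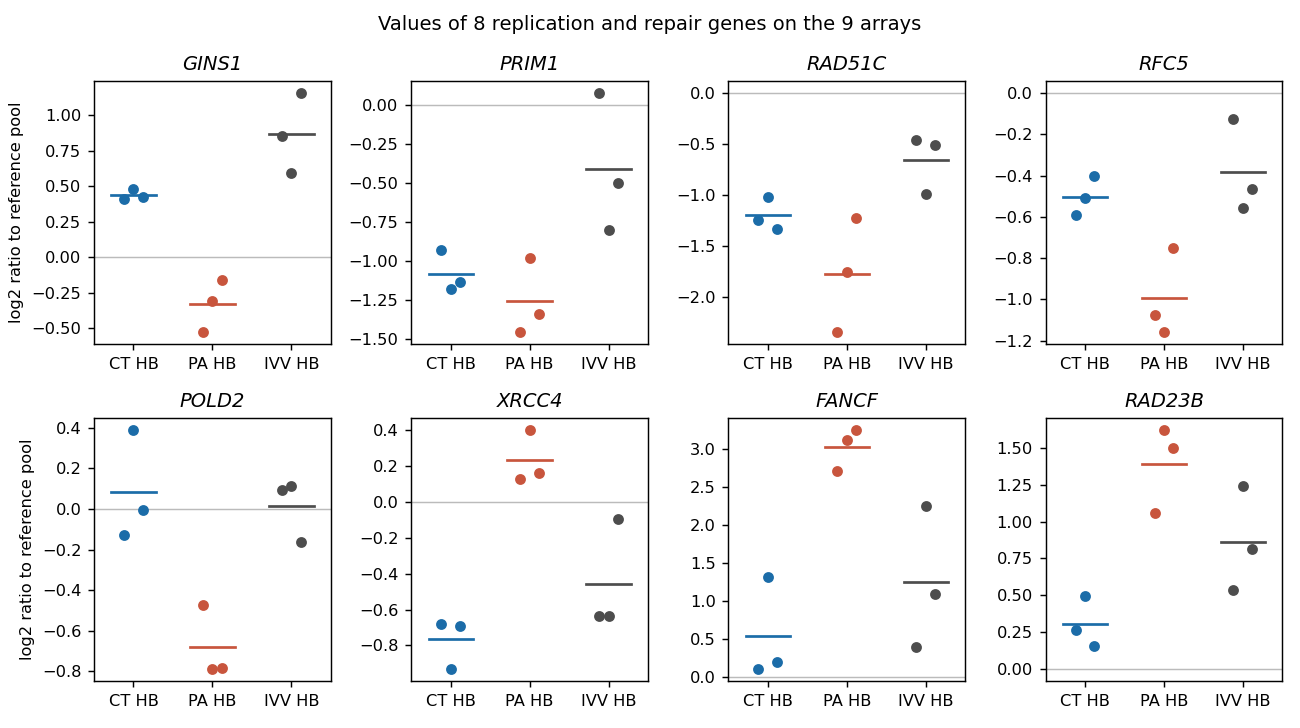
Log2 ratio to the reference pool of 8 genes on each array (points) with the group mean (line) for CT HB, PA HB and IVV HB, each panel on its own axis. *GINS1*, *RFC5* and *POLD2* are lowest in PA HB, *XRCC4*, *FANCF* and *RAD23B* are highest there, and CT HB 2 and IVV HB 2 stand above the other arrays of their groups for *FANCF*.

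In the remaining roles no gene passed either measure in PA HB against IVV HB, and the member with the smallest p of each is given. *LIG1*, which seals nicks between Okazaki fragments, read -0.40, -0.92 and -0.49 in CT HB, -0.52, -0.94 and -0.64 in PA HB, and -0.22, -0.24 and -0.33 in IVV HB. IVV HB lay above both cultured groups with no overlap, with a difference of -0.43 (SE 0.19, limma adjusted p = 0.15) for PA HB. *RRM1*, the large subunit of the enzyme that makes deoxyribonucleotides, read -0.10, -0.67 and -0.29 in CT HB, 0.01, -0.46 and -0.01 in PA HB, and 0.25, -0.07 and 0.24 in IVV HB. The groups PA HB and IVV HB overlapped, with a difference of -0.29 (SE 0.21, limma adjusted p = 0.38), and CT HB lay below IVV HB on every array. *MSH3*, of mismatch repair, read -0.75, -1.005 and -1.06 in CT HB, -1.12, -1.17 and -0.58 in PA HB, and -0.63, -0.46 and -0.88 in IVV HB. All arrays lay below 0 and the groups overlapped, with a difference of -0.30 (SE 0.20, limma adjusted p = 0.36) between PA HB and IVV HB.

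*RPA1*, the large subunit of the single-strand binding protein, read -0.13, -0.65 and -0.55 in CT HB, -0.31, -0.04 and -0.66 in PA HB, and -0.48, -0.26 and -0.64 in IVV HB. The 3 groups covered the same range, and PA HB differed from IVV HB by 0.12 with a 95% interval of -0.34 to 0.59 (limma adjusted p = 0.74). *RAD1*, part of the ring-shaped checkpoint clamp, read -0.17, -0.43 and -0.59 in CT HB, -1.003, -0.96 and 0.19 in PA HB, and 0.03, -0.43 and -0.14 in IVV HB. PA HB 3 stood far above the other PA HB arrays, and the difference to IVV HB was -0.41 (SE 0.29, limma adjusted p = 0.38). *RAD17*, which loads that clamp, was split in the same group the other way, at 0.74 on PA HB 1 against -1.21 and -1.34 on the other PA HB arrays, and its SD of 1.16 in PA HB compares with 0.18 in CT HB and 0.26 in IVV HB. *RAD21*, a core subunit of the cohesin ring that holds sister chromatids together, read -0.53, -0.97 and -0.56 in CT HB, -1.21, -1.01 and -1.34 in PA HB, and -0.41, -0.86 and -1.19 in IVV HB. All its arrays lay below 0, with a difference of -0.37 (SE 0.22, limma adjusted p = 0.3) between PA HB and IVV HB. *RAD54L2*, a chromatin helicase matched by prefix only, read 0.01, 0.17 and 0.21 in CT HB, 0.86, 0.65 and 0.77 in PA HB, and 0.35, 0.32 and 0.63 in IVV HB. PA HB was highest and CT HB lowest with no overlap, with a difference of 0.33 (SE 0.16, limma adjusted p = 0.21) between PA HB and IVV HB and -0.63 (SE 0.16, limma adjusted p = 0.025) between CT HB and PA HB.

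*RAD23B*, a partner of the damage sensor of nucleotide excision repair, was the gene whose probes disagreed most. Averaged over its 5 probes, it read 0.27, 0.49 and 0.16 in CT HB, 1.06, 1.62 and 1.498 in PA HB, and 0.54, 1.25 and 0.81 in IVV HB. CT HB lay below both other groups with no overlap, and *RAD23B* was 2.13-fold down relative to PA HB (log2 difference -1.09, SE 0.22, limma adjusted p = 0.0087). That call rested on 2 probes, numbered 4530 and 35327 on the array, which followed the common profile with correlations of 0.99 each and differed by -2.69 and -2.27. The other 3 probes differed by -0.53, -0.30 and 0.35 between CT HB and PA HB, and without those 2 probes the gene's difference was -0.16 (limma adjusted p = 0.55). The call was lost too without PA HB 2 (-0.97, under 2-fold), without CT HB 3 (limma adjusted p = 0.051), with the median of probes (-0.04) and after quantile (-0.52) and scale normalization (-0.72). Between PA HB and IVV HB the probe values ran from 2.24 to -0.67, and the gene's difference of 0.53 (SE 0.22, limma adjusted p = 0.14) became -0.39 without the 2 probes. The other excision repair genes differed by -0.36 for the nuclease gene *ERCC4* up to 0.27 for the nuclease gene *ERCC5*.

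Other genes with several probes showed the same need for caution. One probe of *LIG1* read -0.45, -1.21 and -0.70 in CT HB, -1.43, -1.62 and -0.99 in PA HB, and -0.20, -0.41 and -0.33 in IVV HB. Taken alone it passed both thresholds in PA HB against IVV HB (log2 difference -1.03, SE 0.24, limma adjusted p = 0.015), whereas the other probe of *LIG1* differed by 0.16. For *RRM1* the probes differed by -0.92 (limma adjusted p = 0.014) and 0.33 in that comparison. The 3 probes of *RFC3* differed by 0.74, 0.10 and -0.44, and the first of these, whose correlation with the common profile was 0.90 and thus below the limit of 0.95, passed both thresholds in CT HB against PA HB (log2 difference -1.07, limma adjusted p = 0.01). In the same comparison single probes of *GINS2* (-1.03, limma adjusted p = 0.034) and of the large clamp loader subunit *RFC1* (-1.001, limma adjusted p = 0.012) passed both thresholds, and their partner probes differed by -0.17 and -0.12.

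**Figure D3:**
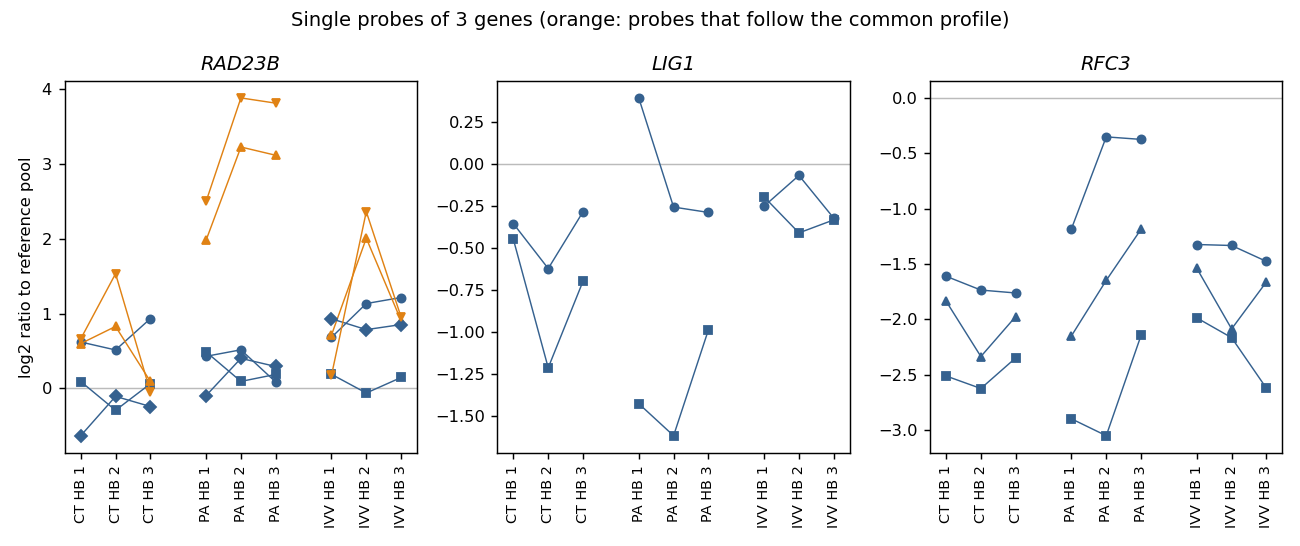
Log2 ratio to the reference pool of each probe of *RAD23B* (5), *LIG1* (2) and *RFC3* (3) on the 9 arrays, with each marker shape a probe and orange for probes that follow the common profile. The 2 orange probes of *RAD23B* jump above 1.9 in PA HB whereas its other probes stay below 0.6 there, and the probes of *LIG1* lie furthest apart in PA HB.

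CT HB were compared with IVV HB to ask how cloned embryos depart from embryos derived in vivo. No gene of the 53 passed both thresholds in limma, against 0.654% of all genes, and none had an adjusted p at or under the threshold (0.8% of all genes). At an unadjusted p under 0.05, 11 passed (20.8%, against 11% of all genes), 10 of them lower in CT HB (18.9%, against 5.07%). Those 10 numbered 3 to 8 when 1 CT HB or IVV HB array was left out, where 3.76% to 5.79% of all genes did so. There were 3 without CT HB 1 (5.66%, against 4.08% of all genes) or IVV HB 1 (5.66%, against 5.79%), 4 without CT HB 3 and 5 without CT HB 2 or IVV HB 3. Without IVV HB 1 the share was thus no higher than that of all genes. All 3 CT HB arrays lay below all 3 IVV HB arrays for 15 of the 53 genes (28.3%), against 9.38% of all genes, and above them for 2 (3.77%, against 9.79%). The median difference was -0.20 on the log2 scale, against -0.01 for all genes, and 35 of the 53 lay below 0 (66%, against 52.2%). That median was -0.11 without IVV HB 1, -0.13 without CT HB 3 and -0.23 without CT HB 1. The median of the 53 genes was -0.40, -0.51 and -0.49 in CT HB, against -0.18, -0.31 and -0.27 in IVV HB. In PA HB it was -0.45, -0.42 and -0.27, so PA HB 1 and PA HB 2 fell in the range of CT HB. A tendency of replication genes to lie lower in CT HB had been seen in an earlier look at these same arrays. The shares given here therefore describe that tendency and do not support it independently. After quantile and after scale normalization 11 genes lay below without overlap (20.8%), against 8.86% and 8.9% of all genes.

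By role the 15 genes were spread over replication and repair. They comprised 3 of 6 helicase genes (*GINS1*, *MCM4* and the recombination helicase *MCM8*), 2 of 9 polymerase and primase genes (*POLE2* and *PRIM1*), 3 of 4 clamp loader genes (*RFC1*, *RFC3* and *RFC4*), *LIG1* and *RRM1*. On the repair side they comprised 2 of 5 recombination genes (*RAD51AP1* and *RAD51C*), 1 of 4 genes of end joining and break repair (*XRCC4*), 1 of 6 excision repair genes (*RAD23B*), 0 of 7 Fanconi anaemia genes and, by prefix only, *RAD54L2*. All 4 clamp loader genes differed by values below 0, between -0.40 and -0.12, and the 6 helicase genes by -0.72 to 0.17. The 2 genes above without overlap were *ERCC8*, of transcription-coupled repair, and *PRIMA1*, which anchors acetylcholinesterase in membranes. These genes are named because their arrays did not overlap, which was seen in the data.

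*MCM4*, of the hexameric MCM ring, read -0.70, -0.89 and -0.87 in CT HB, -0.45, -0.56 and -0.31 in PA HB, and 0.01, -0.66 and 0.36 in IVV HB. IVV HB 2 stood close to CT HB and apart from the other IVV HB arrays, and the difference between CT HB and IVV HB was -0.72 (SE 0.23, limma adjusted p = 0.23). The probes of *MCM4* disagreed, with differences of -1.16 and -0.28, and only the first set IVV HB 2 (-1.19) apart from IVV HB 1 and IVV HB 3 (0.11 and 0.61). *POLE2*, the second subunit of polymerase epsilon, read -2.10, -2.08 and -1.81 in CT HB, -2.15, -1.16 and -0.79 in PA HB, and -1.22, -1.48 and -1.31 in IVV HB. The CT HB arrays lay together below IVV HB, whereas PA HB covered the range of both, with a difference of -0.66 (SE 0.29, limma adjusted p = 0.41) between CT HB and IVV HB. *MCM8*, a helicase of recombination, read -0.43, -0.57 and -0.36 in CT HB, -0.85, 0.10 and -0.41 in PA HB, and 0.53, 0.09 and -0.13 in IVV HB. All CT HB arrays lay below IVV HB, with a difference of -0.62 (SE 0.25, limma adjusted p = 0.37). *ERCC8* read 0.80, 0.22 and 0.23 in CT HB, -0.06, -0.04 and 0.01 in PA HB, and 0.14, -0.27 and -0.05 in IVV HB. CT HB lay highest, CT HB 1 far above the rest, with a difference of 0.47 to IVV HB (SE 0.20, limma adjusted p = 0.39).

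With probes fitted singly, 1 probe of the 53 genes passed both thresholds in CT HB against IVV HB. It belonged to *RAD23B*, did not follow the common profile, and read -0.64, -0.11 and -0.24 in CT HB, -0.10, 0.40 and 0.29 in PA HB, and 0.93, 0.78 and 0.85 in IVV HB. IVV HB lay above both cultured groups with no overlap, by a log2 difference of -1.19 for CT HB (SE 0.20, limma adjusted p = 0.028) and -0.66 for PA HB (SE 0.20, limma adjusted p = 0.052). The other 4 probes of the gene differed by -0.70 to -0.14 between CT HB and IVV HB.

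CT HB were also compared with PA HB, both kinds being made in vitro. Both thresholds were met by 2 of the 53 genes (3.77%), against 7.76% of all genes, and these were *FANCF* and *RAD23B*, both lower in CT HB (4.83% of all genes) and both resting on probes of the common profile. Without those probes no gene was left. An adjusted p of at most 0.05 alone was met by 7 of the 53 (13.2%), against 14.4% of all genes, with *GINS1* and *POLD2* higher in CT HB and *XRCC4*, *POLA2* and *RAD54L2* lower, beside those 2 genes. *POLA2*, the regulatory subunit of polymerase alpha, read -0.56, -0.89 and -0.69 in CT HB, -0.33, 0.07 and 0.19 in PA HB, and -0.62, -0.16 and -0.48 in IVV HB. The CT HB arrays lay below all PA HB arrays and overlapped with IVV HB, with a difference of -0.69 to PA HB (SE 0.20, limma adjusted p = 0.037). Of these calls at adjusted p alone, that of *POLA2* held in 3 of 9 fits without 1 array, those of *POLD2* and *RAD54L2* in 5, and that of *GINS1* in 7 (not without CT HB 1 or CT HB 3). The calls of *POLD2* and *RAD54L2* were lost after quantile (0.63 and -0.44) and scale normalization (0.61 and -0.43), and that of *GINS1* after quantile normalization (0.77). Arrays of CT HB and PA HB did not overlap for 17 of the 53 genes (32.1%), against 31.2% of all genes, with 6 higher (11.3%, against 15%) and 11 lower (20.8%, against 16.2%) in CT HB. The 53 genes had a median log2 difference of -0.10, against -0.001 for all genes. Below 0 lay 29 of them (54.7%, against 50.1% of all genes). The 3 comparisons share their arrays in pairs, so the same PA HB or IVV HB value enters 2 of them, and no overlap between their genes was evaluated.

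**Figure D4:**
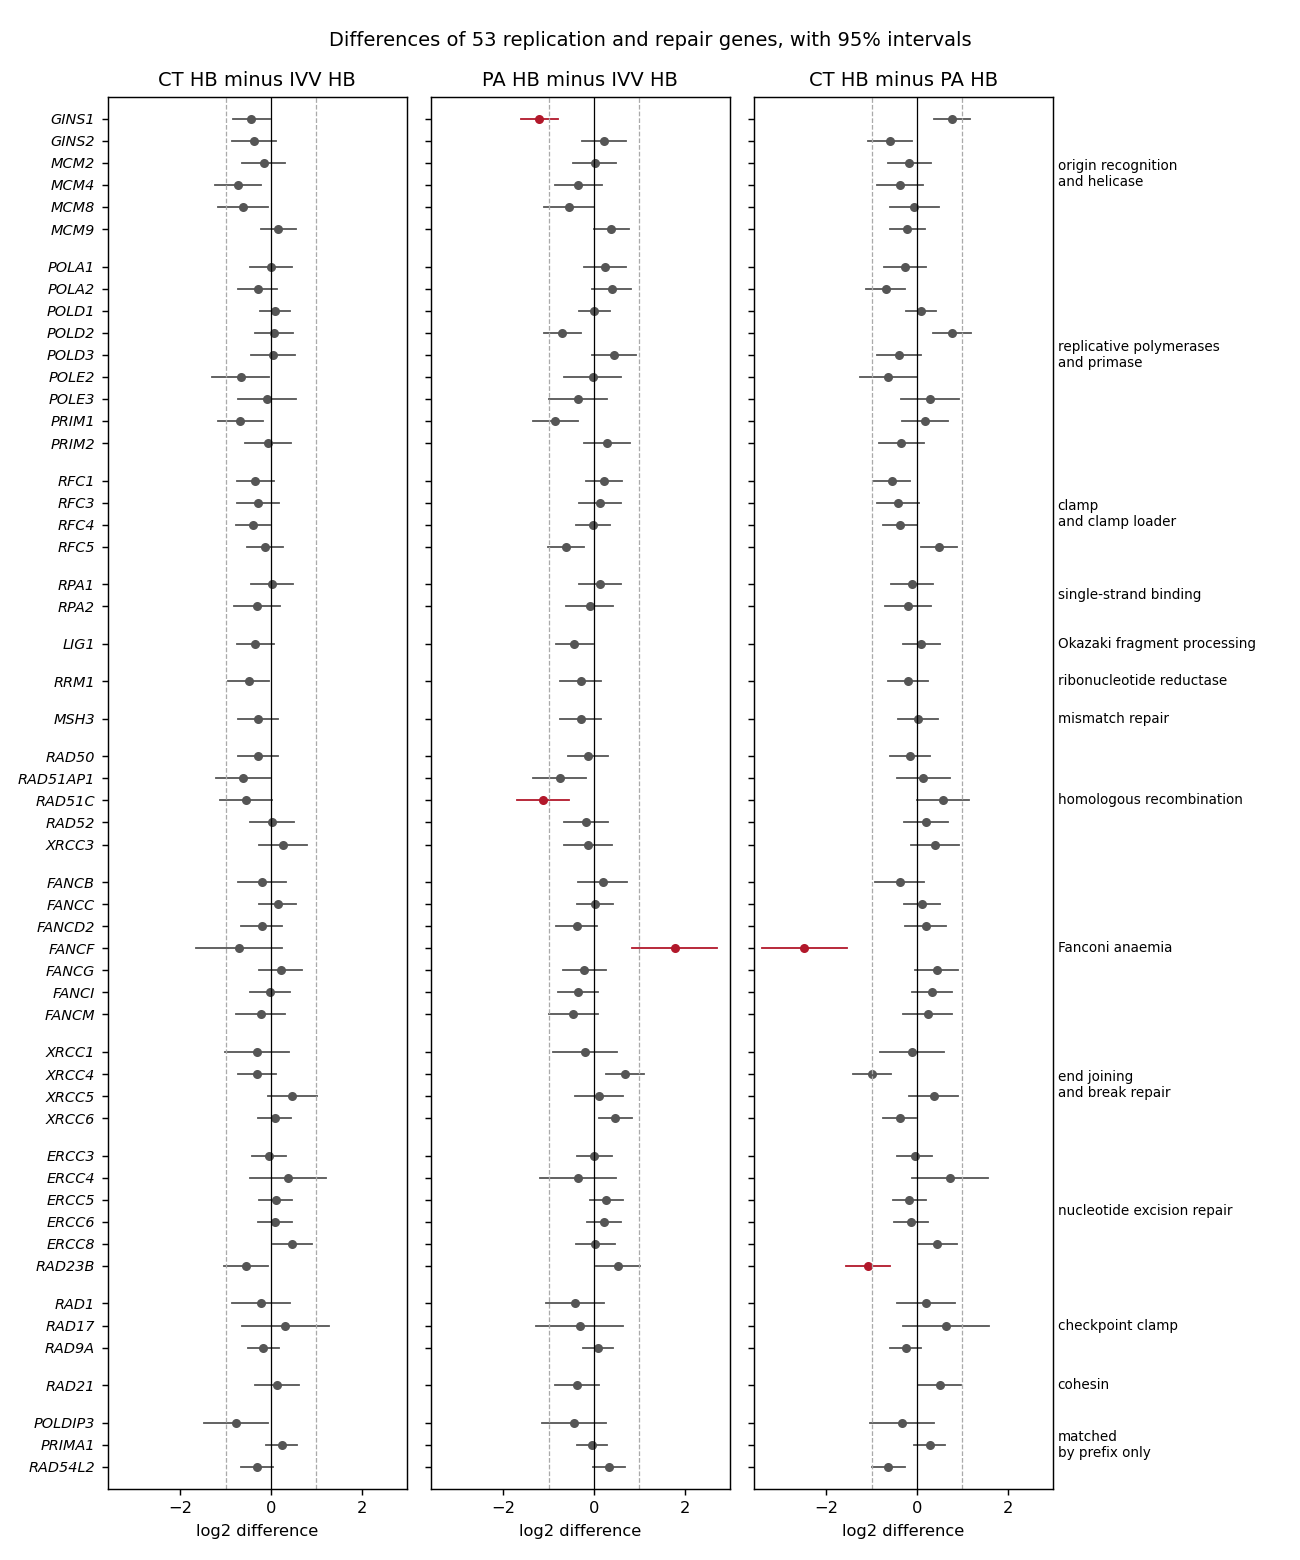
Log2 difference of each of the 53 genes (points, with 95% intervals from limma) for CT HB minus IVV HB, PA HB minus IVV HB and CT HB minus PA HB, grouped by role, with dashed lines at a 2-fold change and red for genes past both thresholds. No gene is red in the left panel, where 35 of 53 points lie below 0, and *GINS1*, *RAD51C*, *FANCF* and *RAD23B* are the red genes elsewhere.

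Genes of the same processes that carry other symbols were taken from lists. Of 19 other replication genes, 3 rose (15.8%, against 4.34% of all genes) and 0 fell (against 3.37%) in PA HB against IVV HB, by log2 differences of 2.55 (limma adjusted p = 0.0033) for *RNASEH2C*, a subunit of the ribonuclease that removes ribonucleotides from DNA, 1.81 (limma adjusted p = 0.013) for *DCTPP1*, a nucleotide pool hydrolase, and 1.43 (limma adjusted p = 0.02) for *CHAF1A*, of the histone chaperone at the fork. *CHAF1A* has a probe of the common profile, and its difference was 0.93 and not called without it, nor was it called after quantile (0.67) and scale normalization (0.85). None of the 19 was called in CT HB against IVV HB, against 0.654% of all genes, and their median was -0.10. In CT HB against PA HB, 1 of 19 rose (5.26%, against 2.93% of all genes), the topoisomerase gene *TOP2A* (1.07, limma adjusted p = 0.034), and 3 fell (15.8%, against 4.83%), namely *RNASEH2C* (-1.44, limma adjusted p = 0.033), *DCTPP1* (-1.58, limma adjusted p = 0.02) and *CHAF1A* (-1.81, limma adjusted p = 0.0072). The call of *CHAF1A* was lost without its probe of the common profile (-0.89) and after quantile normalization (-1.05). After quantile and scale normalization *RNASEH2C* differed by -0.01 and -0.44 there and *TOP2A* by 0.92 and 0.83, and neither was called. The rise of *RNASEH2C* in PA HB was called in 9 of 9 fits without 1 array, that of *DCTPP1* in 8 (not without IVV HB 1, limma adjusted p = 0.051), and that of *CHAF1A* in 5 (lost when PA HB 2, PA HB 3, IVV HB 1 or IVV HB 3 was left out). Between CT HB and PA HB the calls of *TOP2A*, *RNASEH2C* and *DCTPP1* held in 5, 6 and 5 of 9 such fits, and were lost without CT HB 1 or CT HB 3 for each of them, without PA HB 2 for *TOP2A* and *DCTPP1*, without PA HB 3 for *TOP2A* and *RNASEH2C*, and without CT HB 2 for *DCTPP1*.

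Of 47 other repair and checkpoint genes, 2 rose (4.26%, against 4.34% of all genes) and 3 fell (6.38%, against 3.37%) in PA HB against IVV HB. The glycosylase gene *NTHL1*, which starts base excision repair, fell by 1.04 on the log2 scale (limma adjusted p = 0.0042), and the genes *GTF2H1* and *GTF2H3*, of the TFIIH complex that opens DNA around a lesion and at promoters, fell by 1.09 (limma adjusted p = 0.017) and 1.49 (limma adjusted p = 0.015). Their calls held in 8, 7 and 7 of 9 fits without 1 array, and all were lost without IVV HB 1, that of *GTF2H1* also without PA HB 2 and that of *GTF2H3* without IVV HB 3. Quantile normalization ended the calls of *NTHL1* (-0.88) and *GTF2H1* (-1.33), and scale normalization that of *NTHL1* (-0.78). The glycosylase gene *OGG1* (1.66, limma adjusted p = 0.029) and the mismatch repair gene *PMS2* (1.59, limma adjusted p = 0.029) rose, each on probes of the common profile only, and each held in 5 of 9 fits, not in those leaving out PA HB 2, PA HB 3, IVV HB 1 or IVV HB 3. After quantile normalization they differed by 0.55 and 0.19, after scale normalization by 0.81 and 0.61, and were not called. None of the 47 was called in CT HB against IVV HB, against 0.654% of all genes, and 34 lay below 0 (72.3%, against 52.2%). In CT HB against PA HB the poly(ADP-ribose) polymerase gene *PARP2* rose by 1.43 (limma adjusted p = 0.0099, lost without CT HB 3), which makes 1 of 47 (2.13%, against 2.93% of all genes), and 4 genes fell (8.51%, against 4.83%). Of these, *OGG1* (-2.56), *PMS2* (-2.52) and *PARP1* (-1.46) have probes of the common profile, and *PARP1* differed by -0.33 without it and by -0.87 after quantile normalization, not called in either case. The fourth was the glycosylase gene *NEIL3* (-1.02, limma adjusted p = 0.036), which was called in 5 of 9 fits (not without CT HB 1, CT HB 3, PA HB 3 or IVV HB 3).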

How the data were processed

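A set of 9 two-colour arrays of a porcine embryo platform were analysed. The deposited values are log2 ratios of the embryo pool (Cy5) over the reference (Cy3) for 23971 probes, which the authors made in FlexArray by subtracting the background and fitting a global loess curve within each array. Dyes were not swapped, and neither log base nor direction is written beside the values: the direction follows the dyes and the low oocyte transcripts. Without spot intensities, which were not used here, dim probes could not be filtered, and the number of arrays limits the precision. The platform annotation named 10344 probes (43.2%) with 1 symbol each. Symbols were updated through RefSeq names (Sscrofa11.1, names only), 66 by accession and 122 by synonym. Probes were averaged per gene, which gave 7497 genes, 1807 of them with several probes. Of the 53 genes, 36 had 1 probe and 17 had 2 to 8.

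A limma model (version 3.58.1, lmFit and eBayes, under R 4.3.3) of group means was fitted to all 9 arrays, with two-sided tests, and Benjamini-Hochberg adjustment over all genes per comparison, as in the study's methods. The fit was tested on simulated data. By rule, values per array were given for genes past both thresholds and for the gene with the smallest p of each role in PA HB against IVV HB. Those of *POLD3*, *RFC4*, *PRIM1*, *MCM4*, *POLE2*, *MCM8*, *ERCC8* and *POLA2*, and of *RAD17* in PA HB, were given outside this rule, after the results were seen. The genes and lists were chosen with earlier results of these data known. Assignment of *RAD54L2* and *RAD17* to roles was changed after their values were seen. The common profile was found in the data, as probes correlated above 0.95 with the mean of a seed cluster and changing by a similar amount. The seed cluster held probes correlated above 0.97 with 1 of the more variable probes. Alternatives were array weights, a robust prior, single probes, the median of probes, scale, quantile or median centring between arrays, omission of the 25% of genes that varied least, other fold minimums, a block for the replicate number, the 6 compared arrays alone, and each array left out. Leaving out the common-profile probes, and the alternatives for genes without overlap, were added after the data were seen.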

Additional observations from a re-analysis of the deposited data

How the results depend on the processing

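Counts of the 53 genes were small, and 1 gene moved them. In PA HB against IVV HB, 3 genes became 1 after quantile normalization (*GINS1*), 5 with probes fitted singly (also *LIG1* and *RAD23B*), and 7 both without a fold minimum and at a minimum of 1.5. Leaving out 1 array gave 1 to 4 genes, with 1 when PA HB 2, IVV HB 1 or IVV HB 3 was the array. All genes called numbered 578 (325 higher, 253 lower), against 316 after quantile normalization (119 higher, 197 lower), 898 genes with single probes, 1041 without a fold minimum, 1018 at a minimum of 1.5, and 273 to 755 without 1 array (273 without IVV HB 1, 342 without PA HB 2). In CT HB against IVV HB, 0 genes of the 53 were called in the settings run, except 1 with single probes (*RAD23B*), and 0 to 0 without 1 array. All genes numbered 49, against 130 after quantile and 105 after scale normalization, 76 without the least variable genes, 114 with array weights, and 20 to 73 without 1 array (20 without CT HB 3, 24 without IVV HB 1, 23 without IVV HB 3). Genes below without overlap numbered 15 to 21 without 1 array, where 12.9% to 17.5% of all genes did so. Leaving out an array can add such genes and cannot remove any, so this range does not test how far the 15 depend on single arrays. In CT HB against PA HB, 2 genes became 1 after quantile normalization (*XRCC4*), 6 after scale normalization, 1 with the median of probes, 5 with single probes, 7 without a fold minimum, 7 at a minimum of 1.5, 0 without the common-profile probes, and 1 to 5 without 1 array (5 without PA HB 1, 1 without PA HB 2). All genes numbered 582, against 371 after quantile normalization, 1078 without a fold minimum, 1051 at 1.5, and 326 to 790 without 1 array (326 without CT HB 3). In PA HB against IVV HB, differences that did not pass the thresholds changed sign for *MSH3* (0.067) and *RAD21* (0.037) after scale normalization, *RPA1* with 1 array left out (from -0.026 without PA HB 2 to 0.284 without PA HB 3), and *RAD23B* after quantile normalization (-0.036), with the median of probes (-0.475) and without the common-profile probes (-0.387). The causes of these changes were not tested. For *GINS1*, *RAD51C*, *FANCF* and *RAD23B*, no setting run ended a call at both thresholds other than those given with each gene.

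No source says that replicate numbers pair the pools. Same-numbered arrays deviated together with correlations of -0.15 to 0.31 (median 0.10) and differently numbered arrays with -0.42 to 0.26 (median -0.08). Of 18 matches of an array to the arrays of another group, 10 were best with its own number, where 6 are expected if numbers carry nothing. With the number as a block, 3, 0 and 2 of the 53 genes were called in PA HB against IVV HB, CT HB against IVV HB and CT HB against PA HB, the same genes as without it. The 3 arrays a group limit the precision, and a missing call does not show equal expression.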

Other observations

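Among 18 cyclin and mitotic genes, 3 rose (16.7%, against 4.34% of all genes) and 0 fell (against 3.37%) in PA HB against IVV HB. *CDC20*, the activator of the anaphase-promoting complex, rose by 1.72 on the log2 scale (limma adjusted p = 0.0017), and was called in 9 of 9 fits without 1 array. The kinetochore gene *CENPF* (1.17, limma adjusted p = 0.0081, lost without IVV HB 1) and the cell cycle inhibitor gene *RB1* (1.49, limma adjusted p = 0.012) rose too, both on probes of the common profile only, and neither was called after quantile (0.52 and 0.81) or scale normalization (0.63 and 0.997). These 3 genes fell in CT HB against PA HB (16.7%, against 4.83% of all genes), with log2 differences of -1.38, -1.43 and -1.50, and the call of *RB1* was lost without CT HB 3. After quantile and after scale normalization none of these 3 genes passed in CT HB against PA HB, where *CDC20* differed by -0.41 and -0.76. In CT HB against IVV HB, 0 of the 18 were called by limma, against 0.654% of all genes, and their median difference was -0.04.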
